A study of Caenorhabditis elegans with 9 samples.

Results

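The genes described here are 7 members of the Notch pathway of *Caenorhabditis elegans*, out of 20389 genes in the count table. They are the receptors glp-1 (F02A9.6) and lin-12 (R107.8), the ligands apx-1 (K08D9.3) and lag-2 (Y73C8B.4), the protease sup-17 (DY3.7), the DNA-binding factor lag-1 (K08B4.1) and the target ref-1 (T01E8.2). They were chosen by name, with earlier results of these data known, and all 7 passed the filter on low counts. They were followed over 9 mRNA-seq libraries of mixed embryos, with 3 libraries per strain. Wild type was N2. The strain MK14 carries hsp::dpy-27::gfp (hereafter DPY-27::GFP), and KB01 carries hsp::dpy-27[EQ-TR]::gfp (DPY-27(EQ)::GFP, hereafter the EQ mutant), in which the ATPase site of DPY-27 is mutated. DPY-27 is the SMC4 homolog that sets condensin DC, the X chromosome repressor, apart from condensin I. According to the study's methods, both transgenes are single copies inserted on chromosome II under a heat-inducible promoter, in animals that keep their own dpy-27. In every strain, wild type too, asynchronous parents were kept at 35°C for 30 min and at room temperature for 2 h before embryos were released by bleaching, so no library without heat shock enters any comparison.

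In Notch signalling a DSL ligand on a cell binds a receptor on its neighbour. The receptor is then cut outside the membrane by an ADAM protease such as SUP-17 and inside the membrane by gamma-secretase. The freed intracellular part enters the nucleus and joins LAG-1, the worm CSL factor, and SEL-8 to switch on targets such as ref-1, which encodes a bHLH repressor. In the early embryo the posterior blastomere P2 presents APX-1 to its neighbour ABp, which carries maternally supplied GLP-1, and later inductions use LAG-2 and other ligands. LIN-12 acts in later embryonic and larval decisions. Accordingly glp-1, apx-1, lag-1 and sup-17 were taken as the 4 members with RNA supplied by the mother (some are also made by the embryo), and lin-12, lag-2 and ref-1 as the 3 zygotic members. This split comes from genetics known outside these data.

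Values below are read counts per gene as deposited, and counts scaled to the reads on genes in each library by the TMM method (CPM), which compare libraries but not genes of different length. TPM values as deposited, which take gene length into account, are used to compare genes. Reads on genes ranged from 17107945 to 23536013 in wild type, from 7062182 to 9582838 in DPY-27::GFP and from 7573682 to 21281027 in the EQ mutant. Rows that name no gene held 55.2% to 58.2% of reads in wild type against 12.6% to 21.2% in the transgenic strains. Library names begin with LAS in wild type and in EQ mutant replicate 3, and with SEA in the remaining 5; the labels do not say what a prefix marks, and for DPY-27::GFP against wild type prefix and strain coincide and can be separated only by way of the EQ mutant. The transgene's gene dpy-27 was at 465 to 484 CPM in wild type. It was at 802, 451 and 817 CPM in DPY-27::GFP replicates 1 to 3 and at 591, 514 and 901 CPM in the EQ mutant replicates, so DPY-27::GFP replicate 2 was not above wild type. These reads do not tell the transgene from the gene's own copy.

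The members were expressed at different levels. By mean TPM over the 9 libraries the order was sup-17 (71.1), lag-1 (49.9), glp-1 (32.5), ref-1 (26.3), apx-1 (19.3), lin-12 (14.5) and lag-2 (6.18). Maternal members thus took the upper 3 places, and the zygotic lin-12 and lag-2 the lowest. Of the 6 pairs of neighbours in this order, only lin-12 and lag-2 had ranges over the 9 libraries that did not overlap. Within a library the order was steadier. It held for every pair in all 9 libraries except that glp-1 was above ref-1 in 8 and apx-1 above lin-12 in 7. TPM ratios of glp-1 to lin-12 ran from 1.73 to 2.97, and those of apx-1 to lag-2 from 1.90 to 4.64. In each receptor and ligand pair the maternally supplied gene was therefore the higher in every library.

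The paralogous receptors and the paired ligands are neighbours in the genome. On the WS220 build, lin-12 spans III:9060086-9071683 on the minus strand and glp-1 spans III:9092163-9099606 on the plus strand, 20479 bases apart with 5 other counted genes between them. The ligand lag-2 spans V:3188347-3189839 and apx-1 spans V:3210188-3223219, both on the plus strand, with 20348 bases and 5 counted genes between them. The other members lie apart: lag-1 at IV:6095399-6110630, sup-17 at I:8792766-8797287 and ref-1 at II:10218410-10219965, all on the plus strand. None of the 7 is on the X chromosome. In the WBcel235 annotation, exons of glp-1 overlap those of an opposite-strand gene by 18 bases and exons of lag-1 by 293 bases. The libraries were described as strand-specific, but the sources used here do not give the strand setting used in counting. Reads in those stretches are therefore uncertain. For each read on a gene, wild-type libraries had 1.04 to 1.09 reads on no feature, against 0.035 to 0.083 in the transgenic libraries. Whether strandedness or its setting differed between libraries was not tested, so the uncertainty bears on every comparison with wild type. No exon overlap was annotated for the other 5 members.

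The comparison of DPY-27::GFP with wild type sets embryos with the extra DPY-27 copy against embryos without it. That of the EQ mutant with wild type does the same for the ATPase mutant. In both strains the share of reads on no gene also differed from wild type. Name prefix and read depth differed as well in DPY-27::GFP and in EQ mutant replicates 1 and 2. An effect of the transgene itself cannot be told apart from these. Both comparisons share the wild-type libraries. No member passed the test in either (edgeR quasi-likelihood test, Benjamini-Hochberg adjusted p under 0.05), where 10.9% and 6.90% of the 12643 genes tested did. At an unadjusted p under 0.05 there were 3 members in each comparison, against 28.4% and 26.7% of all genes. The log2 fold changes of 6 of the 7 members were below 0 in DPY-27::GFP and of all 7 in the EQ mutant. The members' median was −0.30 and −0.47, against −0.0095 and −0.031 over all genes tested. With DESeq2, 1 member (lag-2) was called in DPY-27::GFP and 0 in the EQ mutant. With only wild type and the EQ mutant in the fit, which leaves out the spread between the DPY-27::GFP libraries, 3 members (apx-1, ref-1 and lag-1) were called in the EQ mutant, with edgeR adjusted p of 0.0183, 0.0261 and 0.0453. Within the LAS prefix, where only EQ mutant replicate 3 can be set against wild type and is assumed to vary like the others, 0 members were called and all 7 log2 fold changes were again below 0, from −0.65 for apx-1 to −0.035 for lin-12.

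**Figure D1:**
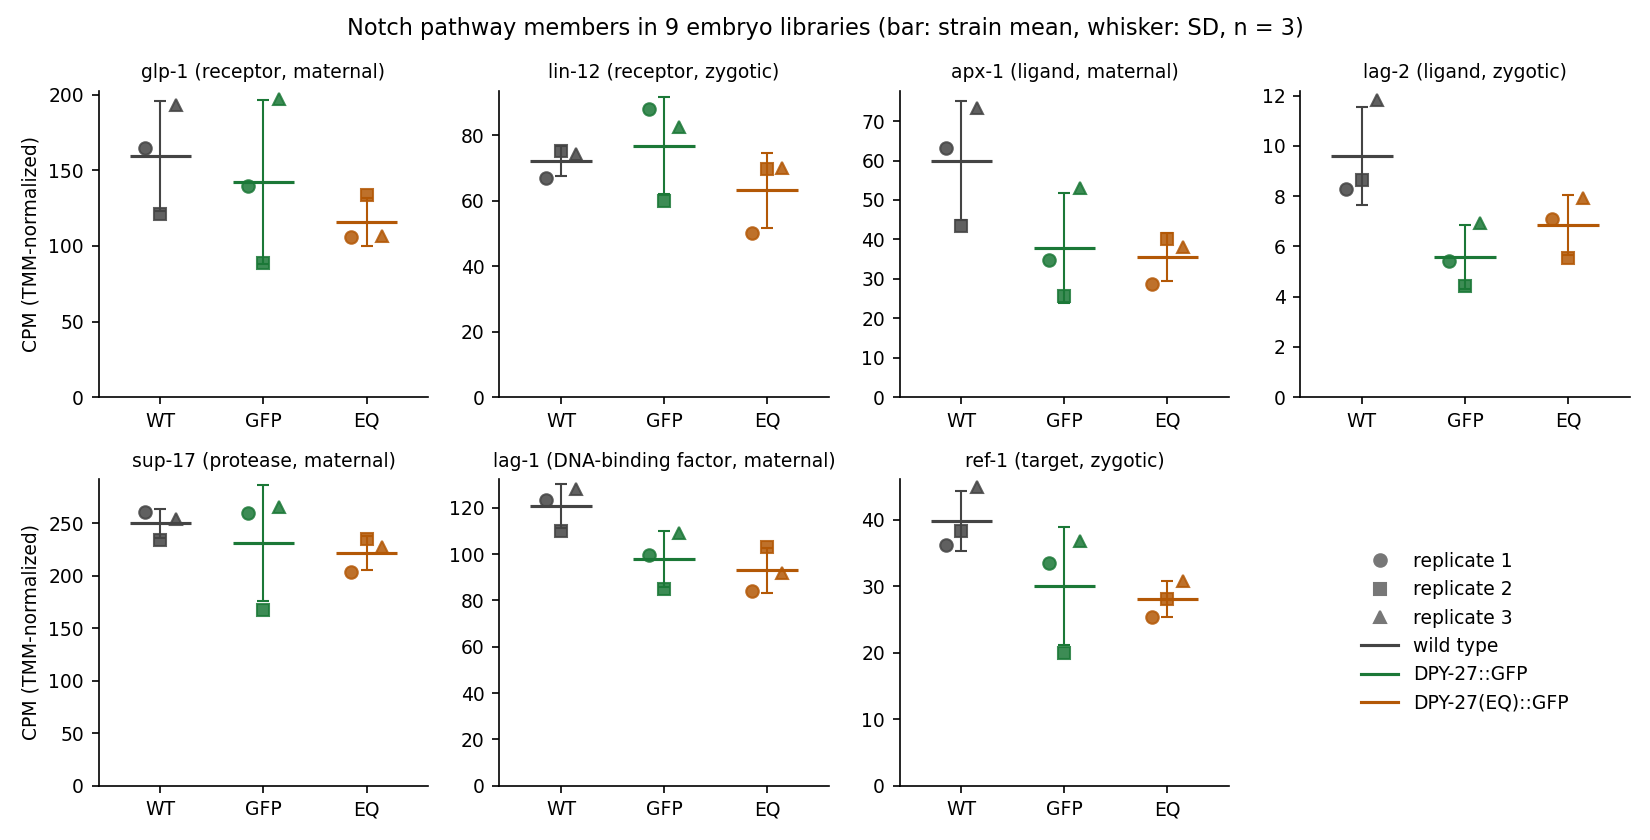
Level of each member in each library, in TMM-normalized CPM from 0, by strain (WT, wild type; GFP, DPY-27::GFP; EQ, the EQ mutant). Points are replicates 1 to 3, bars are strain means and whiskers are SD; lag-1 and lag-2 are lower in all 6 transgenic libraries than in all 3 wild-type libraries, and 5 of the 7 members have their lowest value in DPY-27::GFP replicate 2.

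The receptors showed no strain difference beyond the replicate spread. The maternal receptor glp-1, which also keeps germline stem cells dividing, was at 165, 121 and 193 CPM in wild-type replicates 1 to 3. It was at 140, 88.9 and 197 CPM in DPY-27::GFP and at 106, 134 and 107 CPM in the EQ mutant. All 3 strains overlapped, and both the highest and the lowest value were in DPY-27::GFP libraries. The log2 fold change was −0.17 (SE 0.25, adjusted p 0.699) in DPY-27::GFP and −0.47 (SE 0.25, adjusted p 0.255) in the EQ mutant against wild type (edgeR). The value in DPY-27::GFP turned to 0.10 without its replicate 2 and to 0.014 without wild-type replicate 3. For lin-12 the CPM values were 66.8, 75.2 and 74.2 for wild type, 87.9, 59.9 and 82.4 for DPY-27::GFP, and 49.99, 69.7 and 69.9 in the EQ mutant. The wild-type values were close together, and DPY-27::GFP lay on both sides of them. For lin-12 the log2 fold change was 0.09 (SE 0.17, adjusted p 0.779) and −0.19 (SE 0.17, adjusted p 0.512). It was the only member above 0 in DPY-27::GFP. In deposited TPM, lin-12 was higher in every DPY-27::GFP library (13.3 to 21.7) than in every wild-type library (12.3 to 12.6). On that scale the median of all genes was itself shifted by 0.24 on the log2 scale.

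In DPY-27::GFP the ligands had the lowest fold changes among the members, and against wild type the EQ mutant was lowest in apx-1. APX-1, the ligand of the early P2 to ABp signal, is encoded by a gene that was at 63.2, 43.5 and 73.4 CPM in wild type. For apx-1 the DPY-27::GFP libraries had 34.9, 25.7 and 52.9 CPM, and the EQ mutant had 28.7, 40.1 and 37.99 CPM. Only DPY-27::GFP replicate 3 reached into the wild-type range, and the EQ mutant did not overlap it. Against wild type, apx-1 had a log2 fold change of −0.67 (SE 0.26, 95% interval −1.24 to −0.11, adjusted p 0.113) in DPY-27::GFP and −0.75 (SE 0.26, 95% interval −1.31 to −0.19, adjusted p 0.0951) in the EQ mutant (edgeR). Without DPY-27::GFP replicate 3, whose maternal markers were the highest of the transgenic libraries, these adjusted p were 0.0112 and 0.0280, and the second was 0.0353 without DPY-27::GFP replicate 2. Calls of apx-1 were few, under 1 of 19 alternatives in DPY-27::GFP and 3 of 20 in the EQ mutant. Over these alternatives its log2 fold change came as near 0 as −0.092 and −0.13.

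The ligand lag-2 was the most weakly expressed member, with 142 to 250 reads in wild type and 44 to 165 in the transgenic libraries, so its values carry the most counting error. It was at 8.30, 8.64 and 11.8 CPM in wild type, at 5.41, 4.42 and 6.94 CPM in DPY-27::GFP and at 7.10, 5.54 and 7.92 CPM in the EQ mutant. All 6 transgenic libraries were below all 3 of wild type. For lag-2 the log2 fold change was −0.79 (SE 0.25, 95% interval −1.33 to −0.25, adjusted p 0.0624) in DPY-27::GFP and −0.48 (SE 0.24, 95% interval −1.002 to 0.05, adjusted p 0.228) in the EQ mutant (edgeR). The adjusted p in DPY-27::GFP was 0.0477 with DESeq2 and 0.0253 in edgeR without DPY-27::GFP replicate 3. These were the only calls of lag-2, 2 of 19 alternatives in DPY-27::GFP and 0 of 20 in the EQ mutant. Over these alternatives its log2 fold change came as near 0 as −0.23 and −0.0036.

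The protease gene sup-17, the counterpart of vertebrate ADAM10, was at 261, 234 and 254 CPM in wild type. It was at 259, 167 and 266 CPM in DPY-27::GFP and at 204, 234.5 and 227 CPM in the EQ mutant. The low library was again DPY-27::GFP replicate 2, and the other DPY-27::GFP libraries lay at the top of the wild-type range. Against wild type, sup-17 had log2 fold changes of −0.11 (SE 0.17, adjusted p 0.693) and −0.17 (SE 0.17, adjusted p 0.533), and it turned to 0.099 in DPY-27::GFP without that library (edgeR).

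The nuclear factor lag-1 had the smallest standard error of the members. It was at 124, 110.1 and 128 CPM in wild type, at 99.4, 84.9 and 109.1 CPM in DPY-27::GFP and at 83.9, 103 and 91.7 CPM in the EQ mutant. As for lag-2, every transgenic library was below every wild-type library by a narrow margin, since DPY-27::GFP replicate 3 and wild-type replicate 2 differed by about 1 CPM. For lag-1 the log2 fold change was −0.30 (SE 0.14, 95% interval −0.60 to −0.0071, adjusted p 0.167) in DPY-27::GFP and −0.38 (SE 0.14, 95% interval −0.67 to −0.080, adjusted p 0.109) in the EQ mutant (edgeR).

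The target ref-1 was at 36.2, 38.4 and 44.9 CPM in wild type, at 33.4, 19.996 and 36.7 CPM in DPY-27::GFP and at 25.4, 28.1 and 30.7 CPM in the EQ mutant. The EQ mutant lay wholly below wild type, while DPY-27::GFP replicate 3 reached into it. The log2 fold change of ref-1 was −0.41 (SE 0.21, adjusted p 0.213) in DPY-27::GFP and −0.50 (SE 0.20, 95% interval −0.95 to −0.052, adjusted p 0.147) in the EQ mutant (edgeR). Without DPY-27::GFP replicate 2 the latter adjusted p was 0.0326. Calls of ref-1 were made under 0 of 19 alternatives in DPY-27::GFP and 2 of 20 in the EQ mutant. Over these alternatives its log2 fold change came as near 0 as −0.048 and −0.098.

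Counted by overlap of CPM, 2 of the 7 members (lag-2 and lag-1) were lower in all DPY-27::GFP than in all wild-type libraries, where 18.0% of all genes were. In the EQ mutant 4 were (apx-1, lag-2, lag-1 and ref-1), against 22.4% of all genes. Both lag-1 and lag-2 were lower in all 6 transgenic libraries, against 13.7% of all genes. No member was higher in all libraries of a transgenic strain, or of both, than in all of wild type, where 10.9%, 19.3% and 8.47% of genes were in DPY-27::GFP, the EQ mutant and both. Read by equal replicate number, which the labels do not say marks a pair, apx-1, lag-2, lag-1 and ref-1 were lower in DPY-27::GFP in all 3 pairs, as were 29.8% of all genes, glp-1 and sup-17 in 2 and lin-12 in 1. These counts hold for CPM only. In deposited TPM, apx-1, lag-1 and lag-2 overlapped wild type in both strains. On that scale ref-1 stayed lower in all EQ mutant libraries, and lin-12 was higher in all DPY-27::GFP libraries. The median gene was itself shifted on TPM, by 0.24 and 0.20 on the log2 scale in DPY-27::GFP and the EQ mutant. In bulk embryos, fewer cells of a type and less RNA per cell cannot be told apart.

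**Figure D2:**
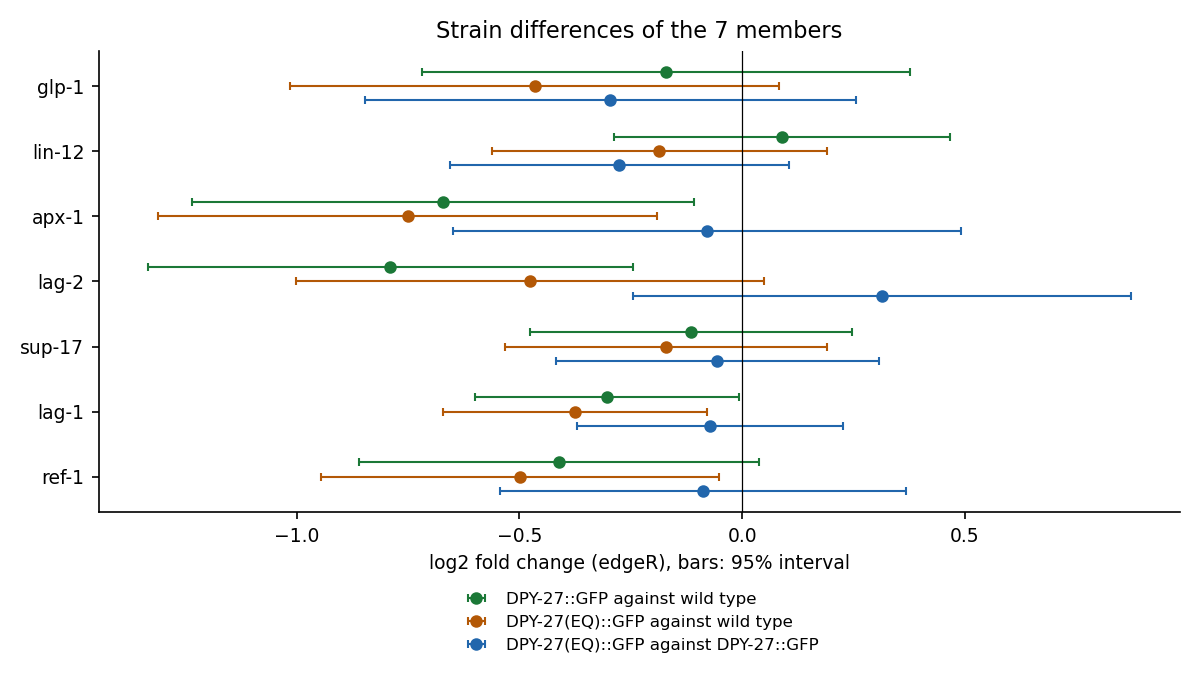
Log2 fold change of each member in the 3 comparisons (points) with its 95% interval from edgeR (bars). Intervals of apx-1 and lag-1 lie below 0 against wild type in both strains, those of lag-2 in DPY-27::GFP and ref-1 in the EQ mutant, and all intervals between the transgenic strains include 0; no value passed the adjusted threshold.

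The comparison of the EQ mutant with DPY-27::GFP asks what the ATPase mutation changed. Among its libraries only EQ mutant replicate 3 had the LAS prefix. That library also had the most reads on genes (21281027) and the largest share of reads on no gene (21.2%). No member and no gene passed the test in edgeR (0 of 12643), and at an unadjusted p under 0.05 there were 0 members and 116 genes (0.918%); DESeq2 also called 0. The log2 fold changes were −0.30 for glp-1, −0.28 for lin-12, −0.078 for apx-1, 0.31 for lag-2, −0.072 for lag-1, −0.056 for sup-17 and −0.088 for ref-1. Both strains overlapped for every member, as they did for all but 4.03% of the genes tested. The intervals leave room for changes of moderate size: the 95% interval ran from −0.85 to 0.26 for glp-1 and from −0.25 to 0.87 for lag-2. It was tightest for lag-1, from −0.37 to 0.23.

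Maternal and zygotic members did not separate. The median log2 fold change against wild type was −0.24 for the 4 maternal and −0.41 for the 3 zygotic members in DPY-27::GFP, and −0.42 and −0.48 in the EQ mutant. The zygotic minus maternal difference was thus −0.17 and −0.055, and −0.012 between the transgenic strains. Against wild type it turned to 0.12 and 0.21 with the name prefix in the fit. Within libraries, the mean log2 CPM of zygotic minus maternal members was −2.31, −1.88 and −2.10 for wild type, −2.06, −2.10 and −2.25 for DPY-27::GFP, and −2.02, −2.25 and −1.89 for the EQ mutant. The strain means of −2.09, −2.14 and −2.05 differed by less than the spread between replicates (SD 0.22, 0.098 and 0.19, n = 3 each). In each class the members also differed from each other: among zygotic members the fold change in DPY-27::GFP ran from −0.79 for lag-2 to 0.09 for lin-12, and among maternal members from −0.67 for apx-1 to −0.11 for sup-17.

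The libraries themselves differed in marker genes of embryo stage. A stage index was taken as the mean log2 CPM of 18 genes of differentiated tissues, such as muscle myosins and epidermal junction genes, minus that of 19 oocyte and early embryo genes. It was 2.95, 3.48 and 2.28 for wild type, 3.73, 4.93 and 3.15 for DPY-27::GFP, and 4.29, 3.59 and 3.93 in the EQ mutant. Wild type held the 2 lowest values, and DPY-27::GFP replicate 2 the highest. Of the 19 maternal markers 5 were called lower in each transgenic strain against wild type, with medians of −0.91 in both. In DPY-27::GFP 6 of the 18 late markers passed upwards and 2 downwards, and in the EQ mutant 0 and 1, with medians of 0.38 and 0.41. The late markers did not move together. In DPY-27::GFP those that rose were the muscle genes unc-54, unc-15, unc-22, myo-1 and myo-2 and the neuronal gene rgef-1, and those that fell were the cuticle collagen gene sqt-3 (−0.75) and unc-119 (−3.18). In each comparison 7 of the 18 were below 0, among them dpy-17, noah-1, noah-2, let-653 and snb-1, which did not pass. The summed CPM of the late markers was 22520 ± 1969 for wild type, 22575 ± 4303 for DPY-27::GFP and 23398 ± 3851 for the EQ mutant (SD, n = 3 each), while that of the maternal markers was 1688 ± 481, 1009 ± 405 and 971 ± 133. The neuronal gene unc-119 was at 88.9 to 96.4 CPM in wild type and 8.82 to 12.4 CPM in the transgenic libraries. Whether the transgenic strains carry an unc-119 mutation is not given in the sources used here. Markers of adult tissue were low: 5 sperm genes summed to 0.92 to 4.83 CPM and 6 yolk genes to 3.98 to 37.8 CPM per library, the highest yolk sum being in DPY-27::GFP replicate 2.

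Levels of the 4 maternal members and of the zygotic ref-1 went down as the index went up, while lin-12 did not pass the test and lag-2 passed by r but not by rho. The index subtracts maternal RNAs, so a negative r of maternal members is partly built in. With the late markers alone, r ran from −0.94 for glp-1 to −0.58 for lag-2. With the maternal markers alone, it ran from 0.98 for apx-1 to 0.47 for lin-12, and was 0.83 for lag-2. Over the 9 libraries, Pearson's r of log2 CPM with the index was −0.97 for apx-1, −0.95 for lag-1, −0.93 for ref-1, −0.91 for glp-1, −0.84 for sup-17, −0.78 for lag-2 and −0.52 for lin-12. By two-sided exact permutation, adjusted over the 7 relations, p was 0.000135 for apx-1, 0.000193 for lag-1, 0.000965 for both glp-1 and ref-1, 0.00408 for sup-17, 0.0173 for lag-2 and 0.149 for lin-12. Spearman's rho was −0.98, −0.97, −0.88, −0.88, −0.78, −0.67 and −0.43 for apx-1, lag-1, ref-1, glp-1, sup-17, lag-2 and lin-12. Its exact permutation p, adjusted in the same way, was 0.000347, 0.000579, 0.00538, 0.00538, 0.0241, 0.0687 and 0.250 in that order. As background, 0.427% of the 12643 genes had an r with the index at or below that of apx-1, 1.79% at or below lag-1, 3.09% ref-1, 4.67% glp-1, 10.6% sup-17, 16.3% lag-2 and 33.7% lin-12. Counted by the size of r in either direction, the shares were 0.609%, 2.91%, 5.24%, 8.68%, 20.4%, 31.2% and 62.4% in the same order. The largest slope was that of apx-1, −0.63 log2 units per unit of the index, and lin-12 had the smallest, −0.16.

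Leaving out the 2 libraries farthest from the median index (DPY-27::GFP replicate 2 and wild-type replicate 3) left r at −0.79 or below for apx-1, lag-1, ref-1, glp-1 and sup-17. For lag-2 it became −0.22, so the relation of lag-2 rests on those 2 libraries. Strain and index are linked, since wild type held the 2 lowest values. The permutations moved libraries freely across strains, so their p-values do not separate strain from index. Within strains, as deviations from the strain means, r was −0.98 for glp-1, −0.95 for apx-1, −0.94 for lag-1, −0.88 for ref-1, −0.87 for sup-17, −0.67 for lin-12 and −0.63 for lag-2. Neither name prefix has the 6 libraries needed for a value of its own. Without unc-119 in the index r ran from −0.98 for apx-1 to −0.49 for lin-12. With the index added to the fit as a covariate, 0 members were called against wild type in either strain. The log2 fold change of glp-1 then turned to 0.40 in DPY-27::GFP (edgeR adjusted p 0.0639) and 0.17 in the EQ mutant, and that of sup-17 to 0.17 and 0.14.

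**Figure D3:**
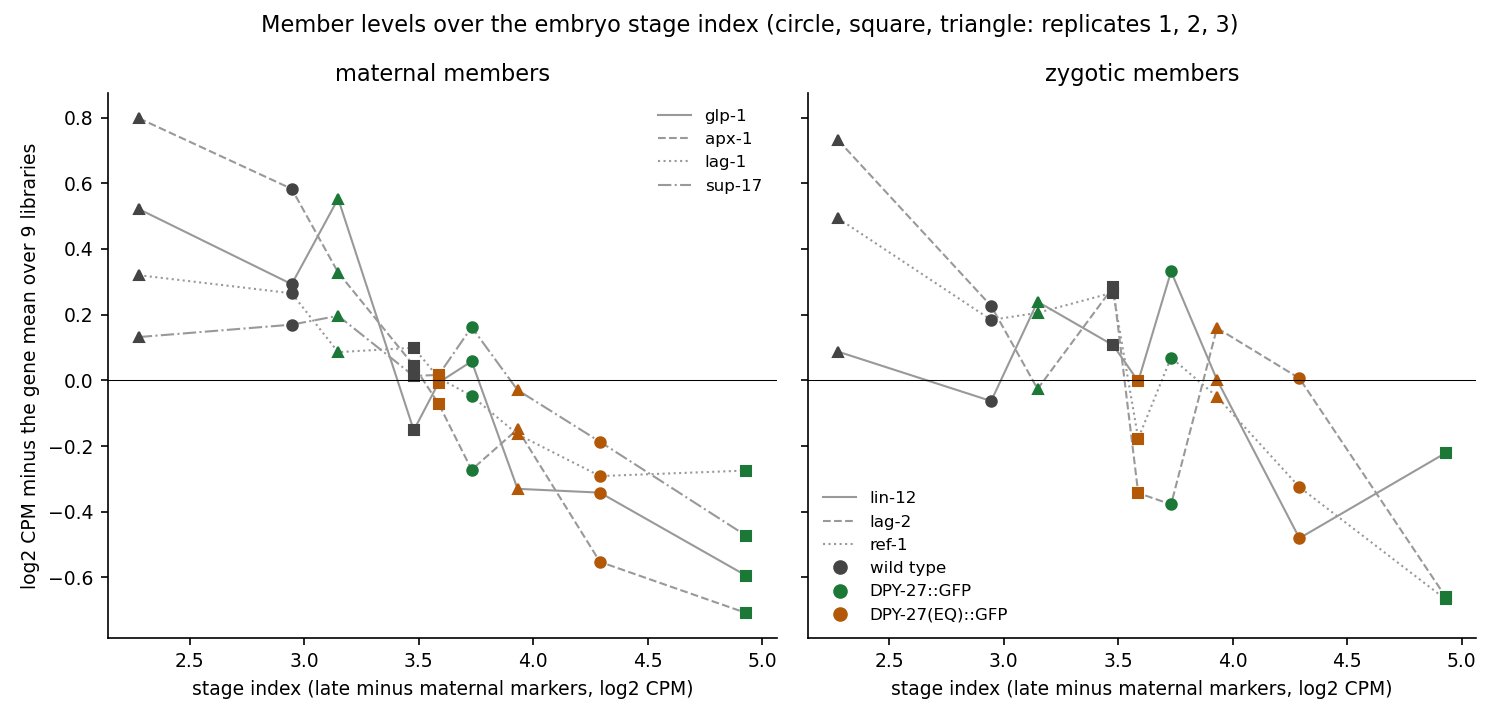
Log2 CPM of each member minus its mean over the 9 libraries, against the embryo stage index (late minus maternal markers, log2 CPM), with maternal members on the left and zygotic members on the right. Colours mark strains, symbols replicates and line styles genes; lines join a gene's libraries in order of the index, and the values go down towards the right for the 4 maternal members and ref-1, most steeply for apx-1 (r = −0.97); lin-12 (r = −0.52) did not pass the test, and lag-2 falls to r = −0.22 without its 2 end libraries.

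The members also moved with each other across libraries, as a description over 9 libraries that share depth and strain differences. Pearson's r of log2 CPM was between 0.76 and 0.96 for the 6 pairs of maternal members, with the highest value between apx-1 and lag-1. It was between 0.11 and 0.80 for the 3 zygotic pairs, the lowest being that of lin-12 and lag-2. Between the classes the 12 pairs ran from 0.46 to 0.88. For glp-1 the 3 genes with the most similar pattern were sun-1, a nuclear envelope protein of meiosis (r = 0.985), pos-1, whose protein binds glp-1 RNA (0.981), and T09F3.5 (0.981). For apx-1 they were M106.3 (0.990), spn-4, an RNA-binding protein of the early embryo (0.989), and F30F8.1 (0.989). For lag-1 they were tyms-1, the thymidylate synthase gene (0.993), zif-1, a maternal marker of the index (0.990), and F54D10.5 (0.987). For sup-17 they were mat-3, an anaphase-promoting complex subunit (0.995), nop-1 (0.982) and fbxb-16 (0.981). For ref-1 they were trm-61A (0.984), the histone deacetylase gene hda-1 (0.982) and the spindle checkpoint gene bub-3 (0.982).

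For lag-2 the most alike genes were hmg-1.1, an HMG box gene (r = 0.974), Y17G7B.17 (0.973) and the co-chaperone gene sti-1 (0.964), and for lin-12 they were fbxb-32 (0.974), T27A1.3 (0.962) and fbxb-9 (0.953), all 3 of the latter at under 10 CPM. Likeness of this size was common: 621 genes had an r over 0.9 with lag-1, 592 with apx-1, 454 with ref-1, 440 with glp-1 and 344 with sup-17. For lag-2 there were 98 and for lin-12 50, so these zygotic members had the fewest genes with a like pattern.

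Other genes of the pathway did pass the test. Of a list of 41 further Notch genes, 32 had enough counts to be tested. The list was drawn up with earlier results of these data known, so its shares are a description and not independent evidence. In DPY-27::GFP 10 of the 32 fell and 1 rose against wild type, which is 34.4% beside 10.9% over all genes, and in the EQ mutant 9 fell and 1 rose, 31.3% beside 6.90% over all genes. Over all genes 7.45% fell and 3.42% rose in DPY-27::GFP, and 5.08% and 1.82% in the EQ mutant. The median log2 fold change of the 32 was −0.49 and −0.45. Of the maternal markers 26.3% were called in each comparison. With the stage index in the fit 6 and 4 genes of the list were called lower, not all of them called without it. Those called both with and without the index were dsl-3, sel-12, pen-2, sel-9 and sygl-1 in DPY-27::GFP. In the EQ mutant they were dsl-3, pen-2 and sygl-1. With the name prefix in the fit 0 were called lower. The counts depended on single libraries. In DPY-27::GFP the number called lower was 2 without its replicate 1, 2 without wild-type replicate 3, and 4 when wild-type replicate 1 was left out. It rose to 14 without its own replicate 3. In the EQ mutant it was 2 without wild-type replicate 3, and 3 when wild-type replicate 1 or its own replicate 1 or 3 was left out. It was 4 without its own replicate 2, 5 without wild-type replicate 2 or DPY-27::GFP replicate 1, and 14 without DPY-27::GFP replicate 2.

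The cleavage machinery held 4 of the 10 genes that fell in DPY-27::GFP and 3 of the 9 that fell in the EQ mutant. Gamma-secretase is made of a presenilin (sel-12 or hop-1), aph-1, aph-2 (the nicastrin gene) and pen-2. Its gene pen-2 was at 27.8, 24.96 and 31.9 CPM in wild type, at 7.45, 9.75 and 12.7 CPM in DPY-27::GFP and at 10.0, 12.6 and 9.59 CPM in the EQ mutant. No transgenic library came within reach of wild type, and the log2 fold change was −1.51 (SE 0.21, adjusted p 0.00129) and −1.40 (SE 0.21, adjusted p 0.00223; edgeR). The presenilin gene hop-1 fell with log2 fold changes of −1.28 (adjusted p 0.0326) and −1.26 (adjusted p 0.0405), from 8.89 to 14.7 CPM in wild type to 2.61 to 6.94 CPM in the transgenic libraries (edgeR). With the stage index in the fit hop-1 was at −0.58 and −0.52 and no longer passed (adjusted p 0.130 and 0.257). The other presenilin gene sel-12, which is on the X chromosome, fell with −0.77 (adjusted p 0.0183) and −0.71 (adjusted p 0.0327), and with the index it was at −0.49 (adjusted p 0.0393) and −0.40 (adjusted p 0.123). For aph-1 the log2 fold change was −0.71 in DPY-27::GFP (adjusted p 0.0455), and −0.65 in the EQ mutant, where it did not pass (adjusted p 0.0729); the call in DPY-27::GFP was lost with the index (−0.40, adjusted p 0.177). By contrast aph-2 did not pass in either strain, with log2 fold changes of 0.28 and 0.13. The second ADAM protease gene, adm-4, did not pass either, at −0.26 and −0.32. Exons of pen-2 overlap an opposite-strand gene by 48 bases, those of hop-1 by 18 and those of aph-1 by 29. The uncertainty over strand given above applies to these stretches too.

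Among further ligands, 8 of 13 were tested, 2 fell and 1 rose in each strain. The DSL ligand gene dsl-3 went from 134, 184 and 169 CPM in wild type to 77.1, 61.7 and 107 CPM in DPY-27::GFP and 68.4, 82.2 and 62.6 CPM in the EQ mutant, with no overlap. Its log2 fold change was −0.99 (SE 0.20, adjusted p 0.0116) and −1.19 (SE 0.20, adjusted p 0.00474; edgeR). That of dsl-1 was −1.13 (adjusted p 0.0467) and −1.30 (adjusted p 0.0356), and with the stage index in the fit it was −0.52 and −0.63 and no longer passed (adjusted p 0.167 and 0.144). The only gene of the list to rise was osm-7, a secreted DOS co-ligand gene. It was at 39.4, 38.4 and 44.3 CPM in wild type, at 106.6, 124 and 55.1 CPM in DPY-27::GFP and at 87.7, 72.7 and 99.8 CPM in the EQ mutant, and every transgenic library was above every wild-type library. Against wild type, osm-7 had log2 fold changes of 1.23 (SE 0.24, adjusted p 0.0106) and 1.09 (SE 0.24, adjusted p 0.0220; edgeR). With the index it was at 0.83 (adjusted p 0.0474) and 0.74 (adjusted p 0.105). The first call was lost without wild-type replicate 1 or 3 or DPY-27::GFP replicate 1, and the other without any wild-type replicate or without EQ mutant replicate 1 or 3. Of the ligands, arg-1, dsl-4, dsl-5, dos-1 and dos-3 had too few reads to be tested.

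Downstream of the receptors, sel-8, the partner of LAG-1, did not pass (−0.25 and −0.49). Of 5 genes known to be under GLP-1 or LIN-12 control, sygl-1, a germline stem cell target of GLP-1, fell. It was at 57.6, 38.5 and 72.0 CPM in wild type, at 13.6, 11.8 and 27.1 CPM in DPY-27::GFP and at 16.1, 18.5 and 19.3 CPM in the EQ mutant, again without overlap. For sygl-1 the log2 fold change was −1.70 (SE 0.30, adjusted p 0.00554) and −1.64 (SE 0.30, adjusted p 0.00746; edgeR). With the stage index in the fit it was −1.06 and −0.94, and both calls held (adjusted p 0.00397 and 0.0107). The other germline target lst-1 did not pass, at −0.49 and −0.65, nor did tbx-37, tbx-38 and lip-1. The paralogs tbx-37 and tbx-38 may share reads. Of the REF-1 family only hlh-27 had enough reads to be tested (−0.49 and −0.43), and its reads may be shared with hlh-25.

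Among 6 RNA-binding regulators of glp-1 RNA, gld-1 and puf-5 fell in both strains. The translational repressor gene gld-1 went from 191, 110.4 and 222 CPM in wild type to 56.6, 50.7 and 109.8 CPM in DPY-27::GFP and 69.9, 88.1 and 79.2 CPM in the EQ mutant. Its log2 fold change was −1.27 (adjusted p 0.0209) and −1.14 (adjusted p 0.0400), and that of puf-5 was −1.01 (adjusted p 0.0410) and −1.05 (adjusted p 0.0430; edgeR). With the stage index in the fit these calls were lost in both strains: gld-1 was at −0.64 and −0.45 (adjusted p 0.0522 and 0.224) and puf-5 at −0.37 and −0.35 (adjusted p 0.159 and 0.255). The gene puf-5 was called under 7 of 19 and 8 of 20 alternatives. Over all called genes of the wider list, calls in DPY-27::GFP ran from 5 of 19 (dsl-1 and aph-1) to 18 of 19 (pen-2 and sygl-1). In the EQ mutant they ran from 7 of 20 (hop-1 and sel-9) to 18 of 20 (dsl-3 and pen-2). The other regulators, pos-1, spn-4, fbf-1 and fbf-2, were between −0.94 and −0.16 in both comparisons without passing. Of 5 turnover and trafficking genes, sel-9, a p24 cargo protein gene, fell with −0.75 (adjusted p 0.0107) and −0.60 (adjusted p 0.0350; with the index −0.61 and −0.46, adjusted p 0.0205 and 0.104), while sel-10, sel-2, sel-5 and epn-1 did not pass. Between the transgenic strains 0 of the 32 genes were called in edgeR, and their median was 0.056. The part of embryo stage in these changes was tested only by the fits with the index.

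**Figure D4:**
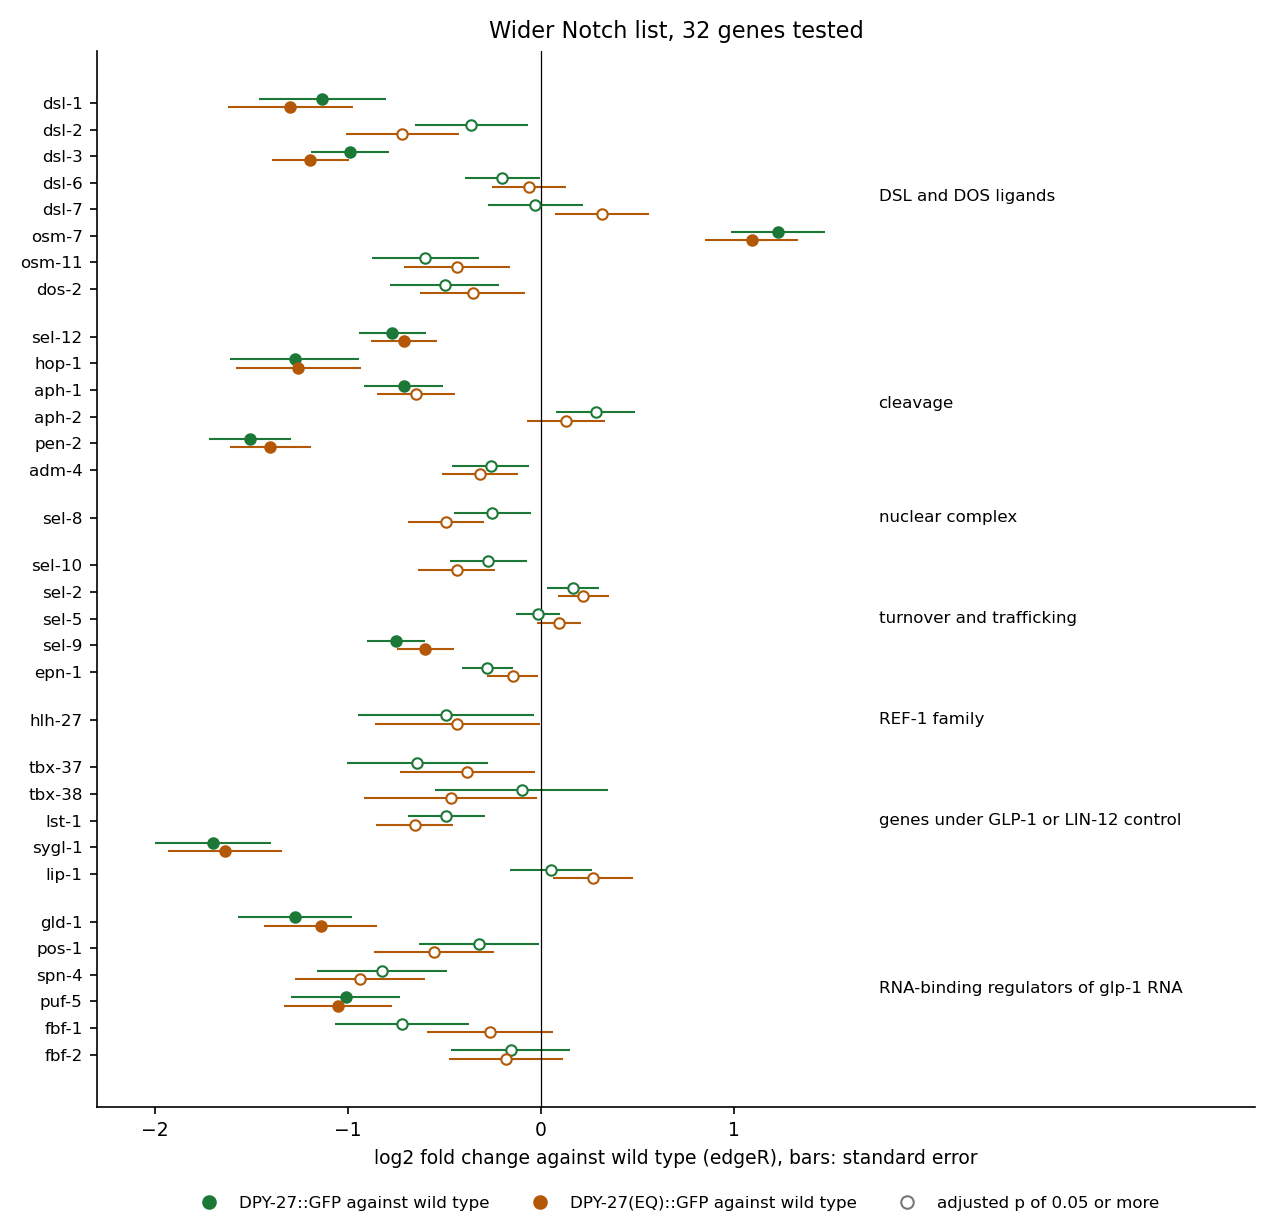
Log2 fold change against wild type (x axis, edgeR, bars are standard errors) of the 32 further Notch genes tested, grouped by role, for DPY-27::GFP (green) and the EQ mutant (orange). Filled points passed an adjusted p of 0.05: 10 genes fell and osm-7 rose in DPY-27::GFP, 9 fell and osm-7 rose in the EQ mutant, and pen-2 and sygl-1 lie farthest to the left.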

How the data were processed

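Counts per gene, TPM values per gene and library, and results tables of strain comparisons were used as deposited by the authors, except that the comparison tables, which hold mean normalized signal, log2 fold changes, standard errors, test scores and p-values, were not used. The processing notes name CASAVA 1.8, Cufflinks 2.2.0, HTSeq 0.6.1p1 and DESeq2. The study's methods, written for another strain, give single-end reads aligned to WS220 with Tophat and counted with HTSeq. The strand option is not given in the sources used here. The deposited counts are raw read numbers, and the authors' TPM values are scaled to gene length and library. No column of per-sample values was set aside.

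Rows that name no gene were left out of library sizes and tests. The counts of 20389 genes were filtered with filterByExpr, which left 12643, normalized by TMM and fitted in R 4.3.3 with the quasi-likelihood functions of edgeR 4.0.16, all 9 libraries together (limma 3.58.1 for TPM). P-values were adjusted over all genes tested (Benjamini-Hochberg), and a gene was called at an adjusted p under 0.05. Log2 CPM used a prior count of 2. The code was tested on simulated counts. Groups and replicate numbers came from the sample labels. Nothing in the labels says that replicates are separate cultures, so p-values measure the spread between these libraries. All pairs of libraries differed by more than counting noise.

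Alternatives were DESeq2 1.42.0, upper-quartile scaling, no filter, 2 strains only, a replicate block, the name prefix or the stage index as covariate, log2(TPM + 1) and log2(TPM + 0.1) with limma, centred TPM (chosen after seeing the data), and each replicate left out. Deviations of same-numbered libraries from their strain means correlated at 0.103, 0.423 and 0.449 for DPY-27::GFP and wild type, all above 0.1. On this ground alone the numbers were read as pairs when counting members lower in each pair. The main tests fitted strain alone, without pairs, and the replicate block was only an alternative. For DPY-27(EQ)::GFP they were 0.023, −0.26 and 0.013 against wild type, so there the numbers were not taken as pairs.

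The members, marker lists and wider Notch list were chosen with earlier results of these data known. Named in full are the 7 members. Of the wider list, genes called in any comparison and others by smallest adjusted p were named, and for each member the 3 genes with the highest r. Positions are those of the deposited TPM table (WS220). Exon overlap and strand came from the WBcel235 annotation. Sequences were not used here. Figures were drawn with matplotlib 3.10.9.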

Additional observations from a re-analysis of the deposited data

How the results depend on the processing

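No alternative called a member or a gene between the transgenic strains. Members called against wild type were 1 in DPY-27::GFP with DESeq2 (lag-2) and 1 in each strain with centred TPM (lag-1), 3 in DPY-27(EQ)::GFP with 2 strains only, and 0 to 2 in each when a replicate was left out. The zygotic minus maternal difference was 0.12 in DPY-27::GFP with the prefix as covariate. In DPY-27(EQ)::GFP it was 0.21 with the prefix, 0.21 within the LAS prefix, 0.24 with log2(TPM + 1), 0.24 with log2(TPM + 0.1) and 0.24 with centred TPM, and −0.18 to 0.17 with a replicate left out; the cause was not tested. It ranged from −0.26 to −0.086 in DPY-27::GFP and from −0.059 to 0.097 between the transgenic strains with a replicate left out.

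Of the wider Notch list, the number called lower in DPY-27::GFP was 0 with the prefix, 6 with the stage index, 4 with 2 strains only, 5 and 4 with log2(TPM + 1) and log2(TPM + 0.1), 6 with centred TPM, and 2 to 14 with a replicate left out. In DPY-27(EQ)::GFP it was 0 with the prefix, 4 with the stage index, 15 with 2 strains only, 3 with either TPM scale, 0 within the LAS prefix and 2 to 14 with a replicate left out. The number called higher was 0 with the prefix in both strains, 0 in DPY-27(EQ)::GFP with the stage index, within the LAS prefix and with centred TPM, and 0 to 1 with a replicate left out. Over all genes, calls ranged from 39 to 3169 in DPY-27::GFP and from 94 to 3042 in DPY-27(EQ)::GFP.

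Among members, the log2 fold change in DPY-27::GFP turned to 0.40 for glp-1 and 0.17 for sup-17 with the stage index, to 0.16 for glp-1 with both TPM scales, and to 0.14 for sup-17 with both. In DPY-27(EQ)::GFP it turned to 0.17 for glp-1, 0.050 for lin-12 and 0.14 for sup-17 with the stage index, and with log2(TPM + 1) and log2(TPM + 0.1) to 0.11 and 0.12 for lin-12, and to 0.057 and 0.058 for sup-17. On TPM the median gene was shifted by 0.24 and 0.20. With a replicate left out, values in DPY-27::GFP ran from −0.46 to 0.10 for glp-1 and from −0.20 to 0.099 for sup-17. Between the transgenic strains they ran from −0.55 to 0.0072 for glp-1, −0.29 to 0.23 for apx-1, −0.24 to 0.051 for sup-17 and −0.31 to 0.075 for ref-1. The replicate block called 0 members in all 3 comparisons, with log2 fold changes in DPY-27::GFP of −0.19 for glp-1, 0.09 for lin-12, −0.69 for apx-1, −0.78 for lag-2, −0.31 for lag-1, −0.13 for sup-17 and −0.43 for ref-1; it called 8 and 7 of the wider list lower against wild type. Depth limits lag-2 most, with 44 to 54 reads in 5 of the transgenic libraries.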
